A study of Rattus norvegicus with 38 samples.

Results

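Prkcb and Mgat5 lie in a pair of 2 Mb windows of the rat genome, on chromosome 1 between bases 176000000 and 178000000 and on chromosome 13 between bases 38000000 and 40000000 of the mRatBN7.2 assembly, and the H3K27ac peaks of these windows are described here in the motor cortex and in the substantia nigra (SN). The windows were chosen by earlier results on acetylation in these rats, whereas membership of a peak follows from its position alone: every peak whose midpoint lies in either window is included. In all, 392 of the 151509 peaks of the lists were members. The cortex list supplied 249 of its 80765 peaks, 152 on chromosome 1 and 97 on chromosome 13. The SN list supplied 143 of its 70744 peaks, 83 on chromosome 1 and 60 on chromosome 13.

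The tissue came from 9 male Lewis rats aged 8 to 10 months, of which 5 received 2.8 mg/kg rotenone and 4 received vehicle, daily for 21 days. Motor cortex and SN, the latter labelled as ventral midbrain, were dissected 24 h after the last injection, giving 18 tissue samples. The vehicle is named differently in the sample labels and in the protocol text. Rotenone inhibits complex I of the mitochondrial respiratory chain and is used to model features of Parkinson's disease in rats. All animals were male and of a single strain, whole dissected tissue was used, and the reads of rotenone and vehicle rats were pooled before peaks were called in each region. Each region therefore has 1 list of positions, with no signal, count or score per rat. Loss or gain of acetylation under rotenone cannot be computed from positions, and the values below have no replicate error and no test. They compare the regions, not the treatments. The study describes its cortex libraries as more deeply read than those of the SN. The SN list as deposited also differs in size from the number of SN peaks that the study states, and the values here refer to the deposited list.

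Acetylation of lysine 27 on histone H3 is placed by the acetyltransferases p300 and CBP and marks active promoters and enhancers. Long runs of closely spaced acetylated stretches are often found at genes that are strongly used by a cell type. In bulk tissue, fewer cells with the mark and less mark per cell cannot be told apart. The tissues were not checked against defining markers of their cells here.

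Gene names were read from the study's annotation of identical intervals, which names the gene with the nearest start site. The annotation lists only peaks that the study called significantly changed under rotenone, and it covers 50 of the 392 members. Counts of members per gene name below are therefore counts of such peaks, not of all peaks at the gene. The annotation gave 9 genes. On chromosome 1 these were Hs3st2, a heparan sulfate sulfotransferase; Usp31, a ubiquitin-specific protease; Chp2, a calcineurin B homologous protein that binds sodium-proton exchangers; Prkcb, the beta isozyme of protein kinase C, which is activated by calcium and diacylglycerol; Cacng3, an auxiliary subunit that regulates the trafficking and gating of AMPA receptors; and Arhgap17. On chromosome 13 they were Mgat5, the Golgi N-acetylglucosaminyltransferase that branches N-glycans; the microRNA gene Mir3473; and R3hdm1, an R3H domain protein whose gene hosts Mir128-1. In the RefSeq gene order of the newer assembly GRCr8, the stretch from Hs3st2 to Arhgap17 held 31 genes, 21 of them protein-coding, among them the mitotic kinase Plk1 and the BRCA2 partner Palb2 before Chp2, and Rbbp6, Tnrc6a and Slc5a11 between Cacng3 and Arhgap17. From Mgat5 to R3hdm1 there were 13 genes, 9 of them protein-coding, among them Ccnt2, Rab3gap1 and Zranb3. Mir3473 lay within the span of Zranb3, a DNA translocase of replication stress, and Mir128-1 within R3hdm1.

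The promoters below are shown because the peaks over these start sites differed in kind: Cacng3 was covered by a broad cortex peak and a narrow SN peak, and Mgat5 by broad peaks in both regions. Each runs 5′ to 3′ on the gene's strand, from 250 bases before to 50 bases after the RefSeq start in GRCr8, whose coordinates are not those of the peaks and whose start may differ from the one used to annotate the peaks. Capitals mark the GC box GGGCGG or its complement CCGCCC, searched on both strands as the only motif.
Cacng3 (GRCr8 chr1:186632312-186632611, plus strand): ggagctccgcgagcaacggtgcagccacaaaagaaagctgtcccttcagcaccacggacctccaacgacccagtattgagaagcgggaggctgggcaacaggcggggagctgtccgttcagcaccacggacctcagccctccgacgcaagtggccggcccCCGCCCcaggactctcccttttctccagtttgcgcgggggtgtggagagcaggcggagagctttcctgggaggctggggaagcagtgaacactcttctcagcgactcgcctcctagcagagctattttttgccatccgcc
Mgat5 (GRCr8 chr13:41228412-41228711, plus strand): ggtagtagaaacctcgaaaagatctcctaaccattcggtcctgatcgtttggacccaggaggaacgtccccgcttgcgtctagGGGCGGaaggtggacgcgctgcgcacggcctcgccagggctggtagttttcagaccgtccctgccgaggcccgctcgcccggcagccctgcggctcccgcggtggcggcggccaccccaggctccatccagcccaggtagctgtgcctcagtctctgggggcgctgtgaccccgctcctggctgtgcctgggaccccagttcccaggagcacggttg

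Promoters were found for 7 of the 9 genes in the RefSeq table. Cacng3 and Mgat5 held 1 GC box each, and 33.1% of all 33469 promoters in the table held at least 1. Both were rich in G and C, with 63.0% for Cacng3 and 67.7% for Mgat5, where the median of all promoters was 51.7%. Their CpG dinucleotides numbered 19 in Cacng3 and 25 in Mgat5, against a median of 7.

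The microRNAs of the chromosome 13 window are printed because the densest cortex stretch there lay at Mir3473, ahead of the start of R3hdm1, the host of Mir128-1. Capitals mark the seed, bases 2 to 8 of the mature RNA as given by RefSeq.
rno-miR-3473: uCUAGGGCuggagagauggcua
rno-miR-128-1-5p: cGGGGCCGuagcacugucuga
rno-miR-128-3p: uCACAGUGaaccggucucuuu
The 3 seeds differed from each other.

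Fewer cortex peaks of both windows coincided with an SN peak than in the cortex list as a whole. In the chromosome 1 window, 44 of 152 cortex peaks (28.9%) were overlapped by at least 1 bp of an SN peak, and in the chromosome 13 window 40 of 97 (41.2%), where 55.1% of the whole cortex list was overlapped. Seen from the SN, 48 of 83 peaks on chromosome 1 (57.8%) and 40 of 60 on chromosome 13 (66.7%) were overlapped by a cortex peak, where the whole SN list had 65.3%. The SN members were thus closer to their list than the cortex members were to theirs. Wide peaks showed this too: of cortex members of at least 1000 bp, 38.5% were overlapped, against 66.1% of such peaks in the list, while for the SN the shares were 84.2% and 86.4%.

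**Figure D1:**
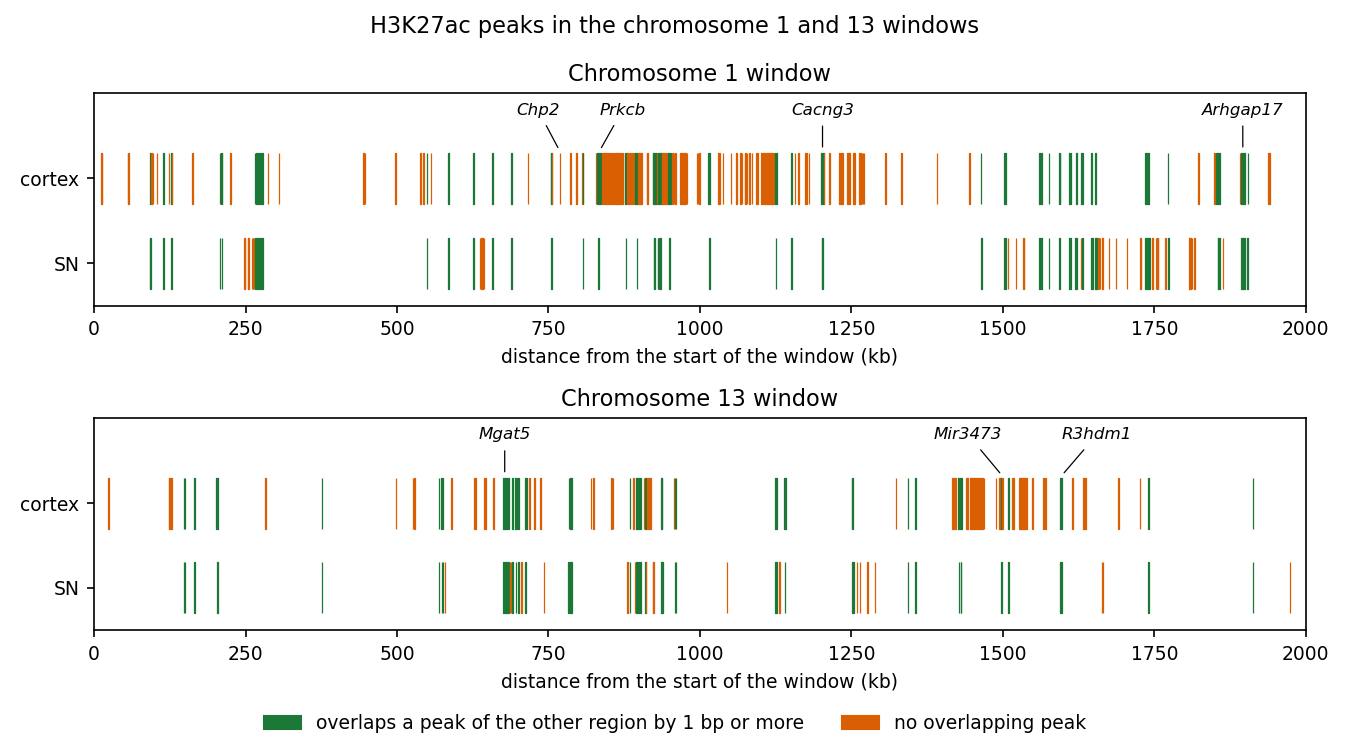
H3K27ac peaks along the chromosome 1 and chromosome 13 windows, as distance from the window start in kb, with cortex above SN; green peaks overlap a peak of the other region by at least 1 bp and orange peaks do not, and names mark cortex peaks over gene start sites. Orange cortex peaks crowd the stretch from Prkcb to beyond Cacng3 and the stretch around Mir3473, where the SN rows hold few peaks.

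Other windows of the genome give the scale. Among the 528 windows of 2 Mb with at least 50 peaks in both lists, 5 had a lower share of overlapped cortex peaks than the chromosome 1 window and 39 a lower share than the chromosome 13 window, with a median of 61.8%. For SN peaks, 105 and 261 windows were lower and the median was 66.7%. The ratio of cortex to SN peaks was 1.83 on chromosome 1 and 1.62 on chromosome 13, higher in 15 and 29 of these windows, with 1.14 for the whole lists. As the windows had been chosen from results on these samples, their ranks are a description.

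**Figure D2:**
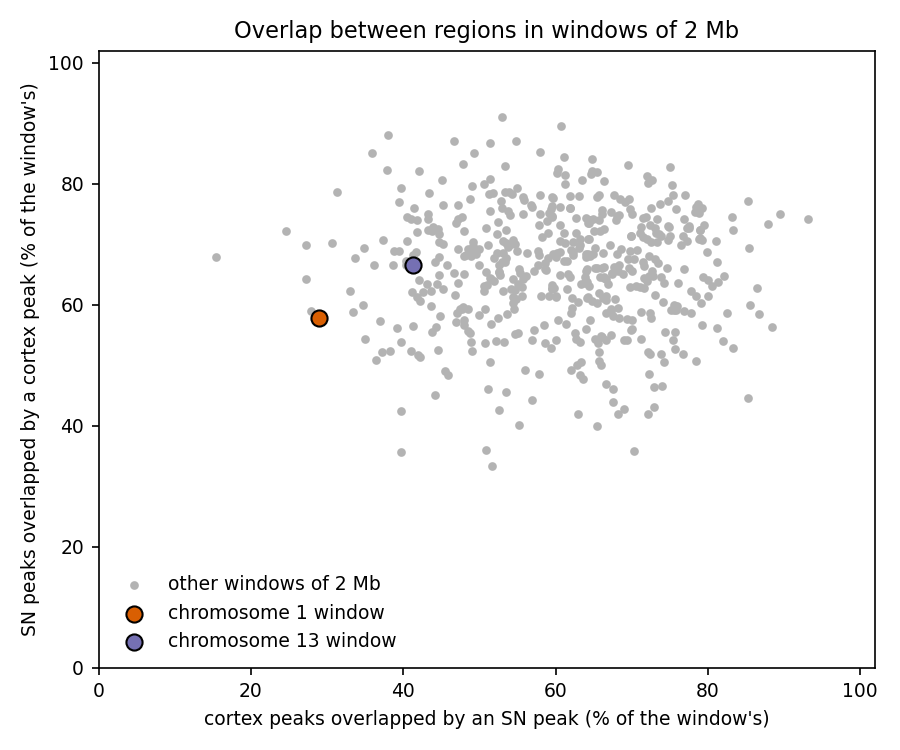
Share of cortex peaks overlapped by an SN peak (x axis, % of the window's cortex peaks) against the share of SN peaks overlapped by a cortex peak (y axis, %), 1 point per 2 Mb window with at least 50 peaks in both lists. The chromosome 1 window at 28.9% and 57.8% and the chromosome 13 window at 41.2% and 66.7% lie at the left of the cloud and within its middle range from top to bottom.

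Counted in bases, cortex peaks covered 272451 bp of the chromosome 1 window (13.6%) and SN peaks 110372 bp (5.52%), a ratio of 2.47. On chromosome 13 they covered 156613 bp (7.83%) and 63828 bp (3.19%), a ratio of 2.45. Over all windows of the genome the ratio was 1.39. Only 26.6% of the cortex bases on chromosome 1 and 29.4% on chromosome 13 were also covered in the SN, against 52.6% genome-wide, whereas 65.6% and 72.2% of the SN bases were covered in the cortex, against 73.3%. The windows differed in density: 60 of 1297 windows held more cortex peaks than the chromosome 1 window and 292 held more than the chromosome 13 window.

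The cortex excess was uneven along the windows. On chromosome 1, the 5 bins of 100 kb with most cortex bases held 62.1% of the window's cortex bases and 13.1% of its SN bases. Picking bins by their cortex bases favours the cortex share, and other windows were not compared in this way. The 5 bins ran next to each other, from 800 to 1300 kb after the window start, and so spanned Prkcb and the start of Cacng3. The first 2 of them held 49866 and 49304 bp of cortex peaks, more than 99.2% of the 25940 bins of the genome in each case, beside 3852 and 7312 bp of SN peaks, more than 74.6% and 83.4%. Elsewhere in the window the SN could be the higher: from 1600 to 1700 kb it covered 20624 bp and the cortex 13842 bp, and from 200 to 300 kb 18807 and 13185 bp. Cortex coverage was the larger in 15 of the 20 bins on chromosome 1 and in 16 of 20 on chromosome 13, where the bin from 1800 to 1900 kb was empty in both lists. The share of such bins over the genome was not computed. Over all bins of the genome the median was 1513 bp in the cortex and 193 bp in the SN, so the count alone does not set the windows apart. On chromosome 13 the densest bin, from 1400 to 1500 kb, held 40565 bp in the cortex, more than 98.4% of bins, and 2654 bp in the SN, more than 69.4%. The 5 densest cortex bins of chromosome 13, picked in the same way, held 67.8% of its cortex bases and 53.4% of its SN bases.

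**Figure D3:**
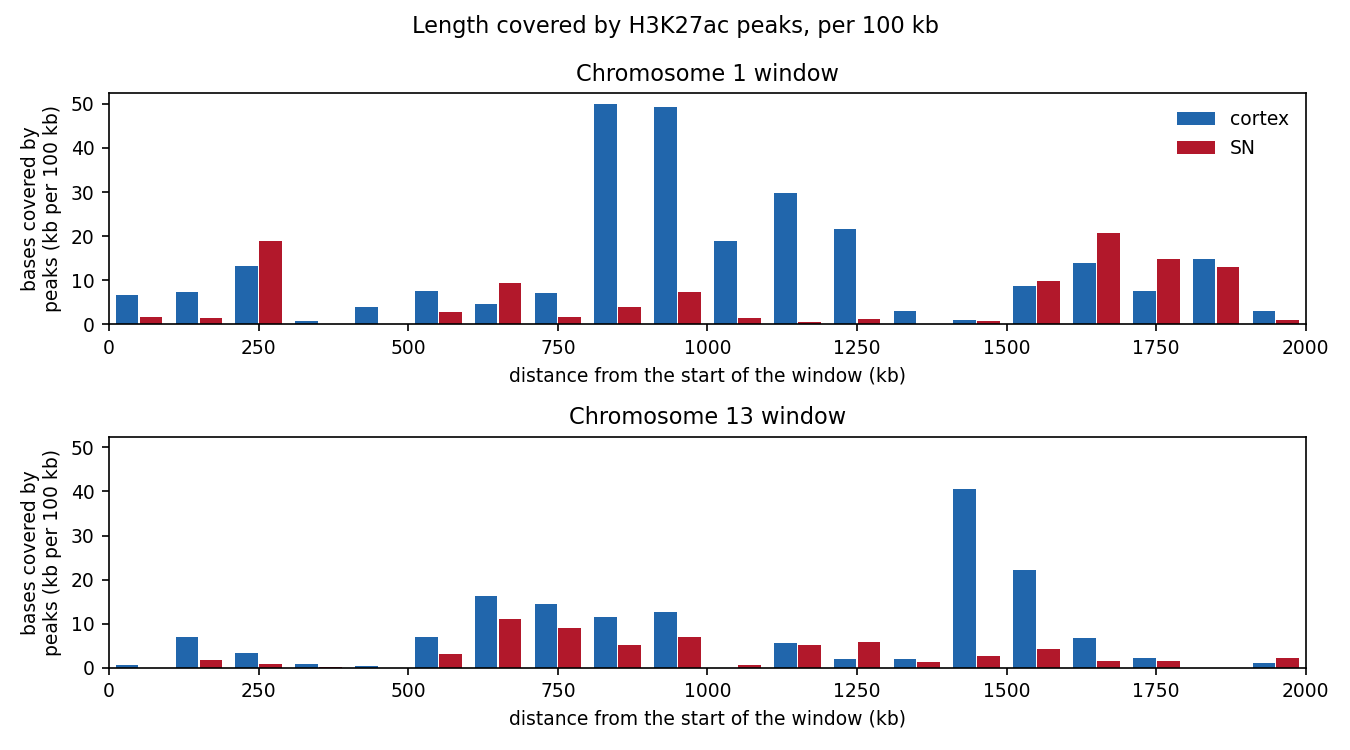
Length covered by H3K27ac peaks per 100 kb (y axis, kb) along each window (x axis, distance from the window start in kb), with cortex in blue and SN in red. Cortex bars of 49866 and 49304 bp stand at Prkcb and 1 of 40565 bp beside Mir3473, while no SN bar there exceeds 7312 bp.

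Between the start sites of Prkcb and Cacng3, the cortex list held 66 peaks, or 17.9 per 100 kb, and the SN list 14, or 3.79 per 100 kb. Cortex peaks covered 145709 bp of this stretch (39.5%) and SN peaks 12720 bp (3.44%). All 14 SN peaks lay on cortex peaks, but 57 of the 66 cortex peaks had no SN peak. Cortex widths had a median of 1361 bp and reached 11842 bp, and SN widths a median of 667.5 bp and reached 2218 bp. In the study's annotation, limited to peaks called changed, 7 cortex members were placed in introns of Prkcb. The stretch was chosen for description after the peaks had been seen.

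The Prkcb start site itself was covered in both regions, by a cortex peak of 6525 bp (chr1:176830803-176837327) that was wider than 97.2% of its list and by an SN peak of 2107 bp (chr1:176832137-176834243) that was wider than 81.1% of its own. From just before it ran the largest string of cortex peaks in the window, 22 peaks with gaps of at most 5 kb over 75931 bp (chr1:176828668-176904598), of which 69.6% was covered. In the same interval the SN list held 3 peaks with 3221 bp. Beyond the string lay a cortex peak of 6756 bp (chr1:176930030-176936785) that held 4 separate SN peaks of 325, 755, 1573 and 1521 bp. The 3 widest cortex peaks without an SN peak were all in this stretch: 6478 bp at chr1:176843667-176850144, 11842 bp at chr1:177100674-177112515, which was wider than 99.4% of the cortex list, and 6123 bp at chr1:177113023-177119145, which the study's annotation placed in an exon.

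At the other end, the Cacng3 start site lay under a cortex peak of 4996 bp (chr1:177199886-177204881), wider than 94.8% of its list, and under an SN peak of 912 bp (chr1:177201673-177202584), wider than 46.0% of its list. The longest run of consecutive cortex peaks without SN overlap in the window followed directly, 18 peaks over 240371 bp (chr1:177204977-177445347) with 8.46% covered. This run was longer than the longest run in 90.4% of the 1297 windows, whose median was 7. These windows include sparse ones, and more cortex peaks leave more room for a long run. The chromosome 1 window held more cortex peaks than 94.9% of them.

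**Figure D4:**
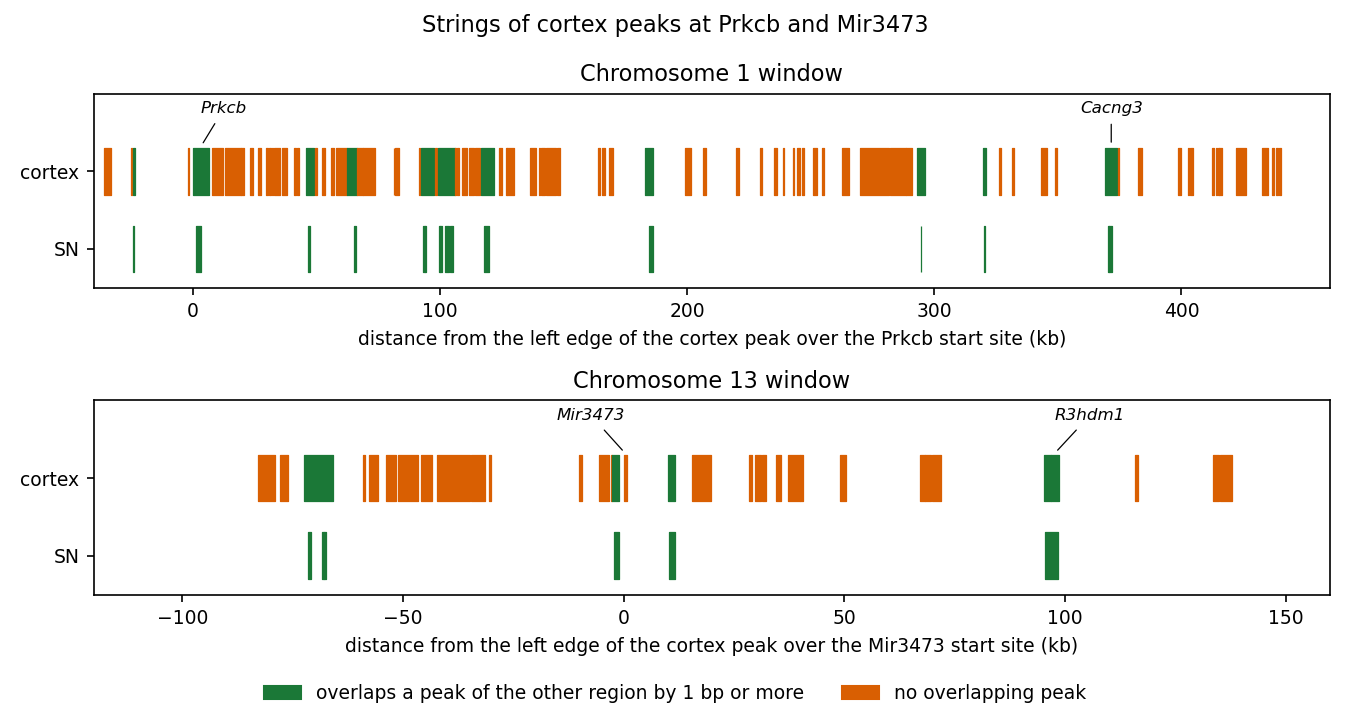
Peaks around Prkcb and Cacng3 (above) and around Mir3473 and R3hdm1 (below), as distance in kb from the left edge of the cortex peak over the first-named start site, coloured as in the map of the windows. The 14 SN peaks between Prkcb and Cacng3 and the 2 between Mir3473 and R3hdm1 all stand under green cortex peaks, with 57 and 12 orange cortex peaks among them.

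Beyond this stretch the regions were more alike in number of peaks and covered length, but not in position throughout. Between Cacng3 and Arhgap17 there were 37 cortex and 41 SN peaks, of which 16 and 17 were overlapped, and they covered 9.52% and 8.26%. The first part of this interval held the run of 18 cortex peaks described above, which met no SN peak. Further on, from 1600 to 1700 kb after the window start, SN peaks covered 20624 bp and cortex peaks 13842 bp. The widest SN peak of the window, 8326 bp (chr1:177735063-177743388), also lay between Cacng3 and Arhgap17. It began at the same base as a cortex peak of 7022 bp (chr1:177735063-177742084). The SN also had peaks of its own, 24 of the 41, with widths up to 2266 bp among those without overlap (chr1:177808820-177811085). The Arhgap17 start site was covered by 6273 bp in the cortex (chr1:177892953-177899225) and 4413 bp in the SN (chr1:177894702-177899114). Between Usp31 and Chp2 the cortex list held 23 peaks and the SN list 17, covering 5.76% and 5.84%. The largest SN string of the window, 10 peaks over 30855 bp (chr1:176247902-176278756), lay around the Usp31 start site of the study's annotation, which itself fell under no peak of either list, and 4 cortex peaks fell in the same interval. Its pair of widest peaks, 5603 and 6890 bp, were the SN members that the annotation named for Usp31. The widest SN peak of the window without a cortex peak had 3380 bp (chr1:176638250-176641629). Chp2 had 595 bp of cortex peak over its annotated start site (chr1:176768486-176769080) and no SN peak, narrower than most of the list, of which 18.7% was narrower still. The longest stretch of the SN list without a peak, 270162 bp (chr1:176278757-176548918), held 10 cortex peaks with 9576 bp.

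On chromosome 13, the start site of Mgat5 was covered by peaks of nearly equal width in both regions: the cortex peak was 5243 bp wide (chr13:38675181-38680423) and the SN peak 5160 bp (chr13:38675181-38680340), and they began at the same base. The SN peak was the widest of the window in its list, and the SN string with most peaks, 11 over 38095 bp, started with it and met 8 cortex peaks. The cortex string with most peaks, 9 over 35458 bp (chr13:38883801-38919258), was met by 7 SN peaks. Between the start sites of Mgat5 and Mir3473 there were 54 cortex peaks, 27 overlapped, and 44 SN peaks, 28 overlapped. They covered 11.9% and 5.74%. Upstream of Mgat5 the cortex list held 21 peaks and the SN list 9, of which 8 each were overlapped. Among the cortex members called changed, and so named, 8 intergenic ones and 1 intronic one were given to Mgat5.

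The cortex peaks without an SN counterpart gathered further on, at Mir3473. The annotation assigned 10 intergenic cortex members to Mir3473, again only among peaks called changed. In the newer assembly Mir3473 lies within the span of Zranb3. The label intergenic is the annotation's own and was not checked against gene bodies. A run of 11 cortex peaks over 56303 bp (chr13:39439941-39496243), 46.2% of it covered, contained no SN overlap. Of all windows, sparse ones included, 70.4% had shorter longest runs, and 76.9% held fewer cortex peaks than the chromosome 13 window. The run held the widest cortex peak of the window, 7409 bp (chr13:39456771-39464179), and another of 4576 bp (chr13:39447854-39452429). Just before the run, a cortex peak of 6586 bp (chr13:39426578-39433163) held 3 SN peaks of 751, 463 and 405 bp. The Mir3473 start site lay under a cortex peak of 675 bp (chr13:39498954-39499628) and under no SN peak. From there to R3hdm1 followed 14 cortex peaks, 12 of them without overlap, that covered 21.7%, against 2 SN peaks, both overlapped, that covered 3.00%. A cortex peak of 4225 bp (chr13:39514541-39518765) was the widest of the 12. At R3hdm1 the SN peak over the start site, 2933 bp (chr13:39594332-39597264), was wider than each of the 2 cortex peaks it met. These had 1438 bp (chr13:39594272-39595709) and 1685 bp (chr13:39595805-39597489). The first began before the SN peak and the second ended after it, so the SN peak did not reach beyond the cortex peaks.

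Where peaks of the regions met, the cortex peak tended to be slightly wider, as in the whole lists. The median ratio of cortex to SN width was 1.23 over 53 pairs on chromosome 1 and 1.17 over 46 pairs on chromosome 13, beside 1.09 over the 50733 pairs of the lists. The cortex peak was the wider in 62.3%, 63.0% and 57.9% of pairs. Extreme pairs stood in the stretches described above, with ratios up to 20.8 in the peak with 4 SN peaks after the Prkcb string and up to 16.3 in that with 3 before Mir3473.

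Overlapped cortex peaks had the larger median width on chromosome 1 but not on chromosome 13. On chromosome 1, cortex peaks with an SN overlap had a median width of 2038.5 bp and those without 1052 bp; on chromosome 13 the medians were 1195.5 and 1270 bp. In the cortex list as a whole they were 1589 and 915 bp. SN peaks followed their list in both windows, with 1050 against 552 bp and 1093.5 against 590.5 bp, beside 1362 against 572 bp. Among peaks without overlap, 55 of 108 cortex and 8 of 35 SN peaks on chromosome 1 were at least 1000 bp wide, and 36 of 57 and 1 of 20 on chromosome 13. In the whole lists the shares were 45.4% and 19.5%.

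**Figure D5:**
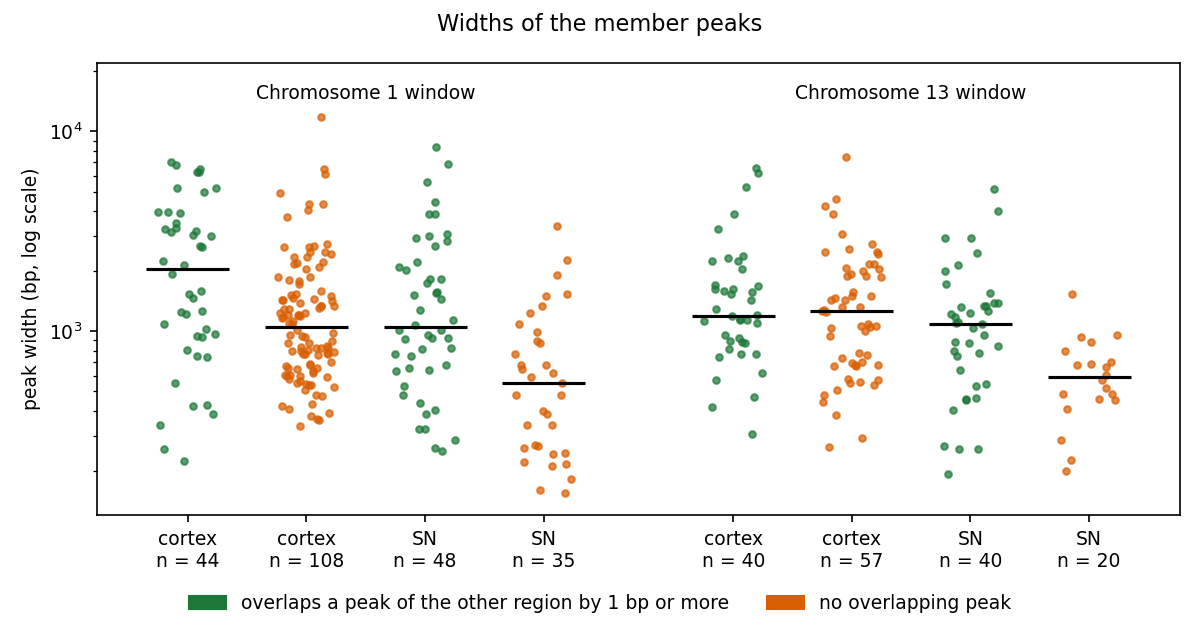
Widths of the member peaks (y axis, bp on a log scale) by window, region and overlap; each point is a peak, lines are medians and n is the number of peaks. In the SN the peaks without overlap are the narrower in both windows, while in the cortex of the chromosome 13 window the medians of 1195.5 and 1270 bp are nearly level.

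The share of peak numbers kept in the lists can be set beside these results. Peaks carry running numbers, and numbers are absent: 58.2% of those up to the highest were present in the cortex list and 47.6% in the SN list. The highest number was 138713 in the cortex list and 148637 in the SN list, so the SN numbers ran further although its list was shorter. Within the windows, 57.6% and 59.9% of cortex numbers and 44.6% and 44.8% of SN numbers were present. On chromosome 1, 112 cortex and 103 SN numbers were lacking, and on chromosome 13, 65 and 74. Between Prkcb and Cacng3, however, the SN list held 34.1% of its numbers, with 27 lacking beside the 14 present, and the cortex list 56.4%, with 51 lacking. Between Mir3473 and R3hdm1, where cortex peaks without SN overlap also gathered, 1 SN number was lacking beside the 2 present. The share there was 66.7%, above that of the SN list. The filter is not given in the sources used here, and its part in the cortex excess was not tested. The part of the lower read depth of the SN was not tested either. Fewer SN peaks from fewer reads cannot be told apart from fewer acetylated sites, since the lists hold no reads.

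The window limits fell in sparse stretches. On chromosome 1 the first cortex member was 947 bp wide and began at 176011378, and the last peak before the limit was 1134 bp wide and ended at 175962045. At the other limit the last member inside was 1420 bp wide and ended at 177940347, and the next peak, 539 bp, began at 178026400. The SN peaks nearest to these limits were 482 bp inside and 224 bp outside, then 931 bp inside and 1604 bp outside. On chromosome 13 the cortex peaks were 671 bp inside and 3508 bp outside, then 1140 bp inside and 461 bp outside, and the SN peaks 798 and 2006 bp, then 956 and 563 bp. The Hs3st2 start site lay outside the window, under a cortex peak of 3638 bp and no SN peak.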

How the data were processed

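H3K27ac ChIP-seq was made from motor cortex and SN of 9 rats, with input from cortex only. Per the labels and methods, the authors used Trim Galore 0.6.7 for trimming, Bowtie2 2.4.4 for alignment against mRatBN7.2, Picard 2.6.0 for duplicate removal and, after joining all samples of a region, MACS2 2.2.7.1 for peaks over input. The deposited files give start, end and a numbered name per peak and hold no count, signal or score, so precision per sample cannot be given; the study describes deeper reads in the cortex. Calling on joined reads can widen or join peaks that differ between rats.

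Peak positions are printed 1-based, with 1 added to each start as read, and widths are the end minus the start as read. Overlaps of at least 1 bp, coverage, strings (gaps of at most 5 kb) and 100 kb bins were computed with Python 3.11.15, numpy 2.4.6 and pandas 2.3.3, and checked on simulated intervals. No test was run. Peaks were assigned to windows by midpoint on a 2 Mb grid over chromosomes 1 to 20 and X. Named peaks are, per window and region, the 3 widest, the 3 widest without overlap, those overlapped by more than 1 peak, and the longest string, run and empty stretch. Gene names and the placing of start sites come from the study's annotation of the same intervals, which lists only peaks it called changed under rotenone. Its comparison columns (effects and p-values) were not used. Start sites rested on between 1 and 10 annotated peaks per gene, 1 for Chp2 and Arhgap17. Sequences come from RefSeq (GRCr8), and no coordinates were converted between assemblies. Members and lists were chosen with earlier results of these data known.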

Additional observations from a re-analysis of the deposited data

How the results depend on the processing

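The share of overlapped cortex peaks was below that of the whole list in both windows under each of the 4 other overlap settings (reciprocal 50%, up to 1 kb apart, at least 1000 bp, merged), but its size moved. With a reciprocal overlap of 50%, the list had 36.6% (cortex) and 41.8% (SN), and the overlapped shares were 13.8% (cortex) and 25.3% (SN) on chromosome 1 and 24.7% and 40% on chromosome 13, and all 14 SN peaks between Prkcb and Cacng3, each narrower than its cortex peak, then lacked a partner. So did 1 of the 2 between Mir3473 and R3hdm1, the SN peak over the R3hdm1 start, which is wider than each of the 2 cortex peaks it meets. With only peaks of at least 1000 bp in both lists, members numbered 86 and 34 (cortex and SN, chromosome 1) and 62 and 23 (chromosome 13). Median widths were 2079, 1864, 1659.5 and 1382 bp. Overlapped shares were 73.5% (SN, chromosome 1), 30.6% (cortex, chromosome 13) and 82.6% (SN, chromosome 13). The whole lists had 54.6% (cortex) and 76.8% (SN) at this setting. In the comparison of wide members in the Results, the other list was not filtered. SN coverage of chromosome 13 was 42459 bp, and the largest strings held 8 and 3 peaks on chromosome 1 and 4 SN peaks on chromosome 13. Merging peaks up to 1 kb apart left 100 cortex members on chromosome 1, 38% of them overlapped, beside 58.5% of the merged cortex list. It gave median widths of 1740 and 1225.5 bp (cortex and SN, chromosome 1) and 1645.5 bp (cortex, chromosome 13). With string gaps 2.5 times as long the largest cortex strings held 42 and 14 peaks. Of 82 alternative values over 38 results, the other 54 stayed within their interval or within 1.5 times. The interval, a 95% binomial one for the overlapped shares, treats the peaks of 1 pooled list as independent and gives no error between rats. The alternatives for the stretches between start sites were chosen after seeing the data. No paired analysis was possible because each region has 1 pooled list and no result comes from a test.

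Limits: pooled lists carry no value per rat, so neither the spread between rats nor a rotenone effect can be given. The cortex was read more deeply than the SN according to the study, and the filter behind the absent peak numbers is not given in the sources used here. Depth and filter can both set how many peaks a region shows. Input was listed for the cortex only, and its part in the SN list was not tested.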
